A study of Mus musculus with 48 samples.

Results

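The 6 genes described here encode proteins that adipocytes make and, except for Adig, secrete as adipokines: Adipoq, Retn, Rbp4, Cfd, Lep and Adig. The 6 together are called adipokines here for short. They were taken by name from the 29801 genes measured in whole mouse tibiae, and each was found once. Their mRNA was compared in male C57Bl6J mice in 4 groups of 3 mice. Aged CR mice were 15 to 18 months old at the start and lived under caloric restriction (CR) for 8 weeks, aged AL mice of the same age ate ad libitum (AL), and young CR and young AL mice (10 weeks by the labels) were fed in the same 2 ways. CR mice had their ration cut by 10% in week 1 and by 20% in week 2. From week 3 the methods word it as a decrease to 40% of the initial intake. The sample annotation used here has a reduction by 40% for this step. CR mice ate a diet enriched in micronutrients, given just before the dark period. The methods do not say whether AL mice were moved to this diet too, and the restricted amount and the timed feeding cannot be told apart. All mice were caged singly, and some mice of the study had an osteotomy of the right tibia, which the labels do not record for these samples. The tibiae were stripped of muscle and connective tissue and ground whole, so bone, marrow and the adipocytes of bone marrow adipose tissue (BMAT) were measured together, and fewer adipocytes and less RNA per adipocyte cannot be told apart. Skeletal muscle markers still summed to 111 to 800 FPKM over the 12 mice, and what attached tissue added to the values was not tested. Values are FPKM (fragments scaled to transcript length and to the mapped reads of the library) after quantile normalization by the authors, which gives every mouse the same distribution. Genes averaging 1 FPKM or more across the 12 mice were tested, 13590 in all, among them 5 of the 6 members, while Lep did not reach this level. The depth per mouse is unknown, and the p-values rest on how far mice of one group differ.

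Adipocytes signal to other tissues through adipokines, and marrow adipocytes are a source of them that, unlike most fat depots, is known to expand under caloric restriction. Adipoq encodes adiponectin, a hormone that raises insulin sensitivity and fatty acid oxidation through the receptors AdipoR1 and AdipoR2. Cfd encodes adipsin (complement factor D), the protease that cleaves factor B and so starts the alternative complement pathway. Rbp4 encodes the carrier of retinol in blood, made mostly by liver and also by adipocytes. Retn encodes resistin, an adipocyte hormone in mice that opposes insulin action, Lep encodes the satiety hormone leptin, and Adig encodes adipogenin, a small membrane protein of adipocytes that takes part in lipid droplet formation.

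The genes lie on separate chromosomes of GRCm38 (GENCODE M21), and none overlaps another annotated gene. Adipoq is at 16:23146536-23158028 on the plus strand with up to 3 exons per transcript, Cfd at 10:79890853-79892655 on the plus strand with up to 5, and Rbp4 at 19:38116629-38125281 on the minus strand with up to 6. Retn is at 8:3655770-3660110 with up to 5 exons, Lep at 6:29060220-29073877 with up to 3, and Adig at 2:158502612-158508198 with up to 3, each of them on the plus strand. All 6 are annotated as coding genes. Reads can be assigned to these genes with little ambiguity: only Retn shared any of its 31-base windows with transcripts of other genes (50 of 1548, or 3.23%), and none with Retnlg, the resistin-like gene of neutrophils, which averaged 1275 to 1975 FPKM in the 4 groups.

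Because the 5 tested genes moved in one direction with diet, the bases before their transcription starts were searched for 5 short motifs on both strands. RefSeq promoters on GRCm38.p6 were matched for 6 of 6 genes, with 2 starts for Rbp4, and the 250 bases before each start were read. The stretches below end at the last base outside a GENCODE exon and run 5′ to 3′ on the strand of the gene, and capitals mark a motif. They are shown for the genes with the largest and the smallest of the 5 changes, Rbp4 (its downstream start) and Adipoq. Retn, which holds none of the 5 motifs searched, is shown as well.
Rbp4 at chr19:38124829-38124931: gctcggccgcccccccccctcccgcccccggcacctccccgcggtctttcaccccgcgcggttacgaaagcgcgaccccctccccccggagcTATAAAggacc
Adipoq at chr16:23146416-23146535: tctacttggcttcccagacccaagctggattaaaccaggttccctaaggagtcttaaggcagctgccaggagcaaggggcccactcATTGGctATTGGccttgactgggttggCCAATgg
Retn at chr8:3655650-3655769: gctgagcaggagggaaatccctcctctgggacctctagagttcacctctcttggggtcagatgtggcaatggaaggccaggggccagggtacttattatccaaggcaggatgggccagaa

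The letters TATAAA, the core TATA box, begin at position -28 from the downstream start of Rbp4 and before no other member, while 12.4% of all RefSeq promoters of this length hold them. CCAAT, the CCAAT box, occurs 3 times before Adipoq and once before the upstream start of Rbp4, against 33.8% of all promoters with at least 1 match. TTGCNNAA, which C/EBP factors are known to bind, was found before Rbp4 (its downstream start) and, as a palindrome, at position -55 from the start of Lep, against 9.56% of promoters. AGGTCA, a nuclear receptor motif, was found before Adig alone (14% of promoters). CACGTG, a form of the E-box, was found before none of the 6 (6.02% of promoters), and other forms of the E-box were not searched. No motif was shared by all members, and a match of these letters is a description and not a site.

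All 5 tested members had higher mean levels with CR than with AL in both age groups, and Rbp4, Retn and Adig were called over both ages. A gene was called where limma's test on log2(FPKM + 1) gave a Benjamini-Hochberg adjusted p under 0.05 over all genes tested. Thus 3 of 5 members were called higher with diet, against 0.191% of all genes tested, and the median log2 fold change of the members was 1.57, against 0.0025 for all genes. Leaving out aged AL mouse 14 together with mouse 5 of the aged CR group, which lay farthest from their group means over the tested genes (root mean square difference of 0.29 and 0.25 on the log2 scale, against 0.16 to 0.24 for the other mice), 5 of 5 were called. These mice were picked from the same data, and the share of all genes called without them is not given here. In young mice the CR mice lay above the AL mice without overlap for 5 of 5 tested members and for Lep, against 10.1% of genes tested. In aged mice this held for Rbp4, Retn, Cfd and Adig, that is 4 of 5, against 5.7%, and the same 4 did so in both ages, against 1.53%.

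Rbp4 was at 5.60, 11.5 and 10.5 FPKM in aged CR mice, against 2.86, 2.08 and 1.90 FPKM in aged AL mice. In young mice it was at 9.69, 9.41 and 6.76 FPKM with CR, against 2.07, 2.01 and 1.70 FPKM with AL. No CR mouse reached down to an AL mouse in either age, and the lowest CR value, in aged mouse 5, was still well above the highest AL value. The group means were 9.23 ± 3.18 FPKM in aged CR and 2.28 ± 0.51 FPKM in aged AL mice, a ratio of 4.04, and 8.62 ± 1.61 FPKM in young CR and 1.93 ± 0.198 FPKM in young AL mice, a ratio of 4.47 (SD, n = 3 each). Over both ages Rbp4 rose by a log2 fold change of 1.65 (standard error 0.16, limma adjusted p = 0.00316), the third highest change and the smallest p of all genes tested. The pseudocount of 1 compresses the changes of Rbp4, Retn and Adig, which are low in AL mice, more than those of Cfd and Adipoq. Ranks and comparisons between members hold for this scale. The hepatocyte marker Alb, which encodes serum albumin, averaged 0.0144 FPKM over the 12 mice and was listed at 0 in all 6 AL mice and in 3 of 6 CR mice. Of the other hepatocyte markers Apoa2 was also under 1 FPKM, and Serpina1a, a secreted protease inhibitor, was at a log2 fold change of 1.04 (adjusted p = 0.103). The 3 markers together summed to 2.32 to 7.54 FPKM in aged CR and 2.1 to 3.47 FPKM in aged AL mice, and to 6.71 to 17.8 FPKM in young CR and 2.08 to 4.09 FPKM in young AL mice, and their part in the difference of Rbp4 was not tested.

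Retn was at 4.34, 8.64 and 8.22 FPKM in aged CR mice, against 1.88, 0.729 and 1.98 FPKM in aged AL mice. Young CR mice had 8.45, 8.05 and 4.60 FPKM of Retn, against 1.97, 1.53 and 1.35 FPKM in young AL mice. The 6 CR mice were again apart from the 6 AL mice, and the lowest AL value came from aged mouse 14. Mean levels were 7.07 ± 2.37 FPKM in aged CR and 1.53 ± 0.70 FPKM in aged AL mice, a ratio of 4.62, and 7.04 ± 2.12 FPKM in young CR and 1.62 ± 0.31 FPKM in young AL mice, a ratio of 4.35 (SD, n = 3 each). Retn rose over both ages by a log2 fold change of 1.63 (standard error 0.20, limma adjusted p = 0.00853), the fifth highest of all genes tested.

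Cfd was the most abundant adipokine in every mouse, at 150.0, 310.2 and 275.9 FPKM in aged CR mice, against 144.2, 44.2 and 96.3 FPKM in aged AL mice. In young mice it was at 235.5, 209.1 and 121.7 FPKM with CR, against 49.1, 51.7 and 67.0 FPKM with AL. The groups did not overlap, but aged CR mouse 5 and aged AL mouse 13 differed little. The means were 245 ± 84.4 FPKM in aged CR and 94.9 ± 50.0 FPKM in aged AL mice, a ratio of 2.58, and 189 ± 59.6 FPKM in young CR and 55.9 ± 9.65 FPKM in young AL mice, a ratio of 3.37 (SD, n = 3 each). The log2 fold change over both ages was 1.57 (standard error 0.29), the ninth highest, and missed the threshold (limma, adjusted p = 0.0553). Leaving out 1 aged mouse brought it past the threshold for CR mouse 5 (1.73, limma adjusted p = 0.0196), for AL mouse 13 (1.76, adjusted p = 0.0372) and for AL mouse 14 (1.34, adjusted p = 0.0295). Leaving out any other mouse did not, and the limma adjusted p reached 0.151.

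Adig was at 6.0, 8.02 and 8.29 FPKM in aged CR mice, against 3.37, 1.47 and 2.49 FPKM in aged AL mice. Young CR mice had 7.53, 6.72 and 4.63 FPKM of Adig, against 1.46, 1.42 and 2.53 FPKM in young AL mice. Every CR mouse exceeded every AL mouse of either age. Adig averaged 7.44 ± 1.25 FPKM in aged CR and 2.44 ± 0.949 FPKM in aged AL mice, a ratio of 3.04, and 6.29 ± 1.5 FPKM in young CR and 1.80 ± 0.634 FPKM in young AL mice, a ratio of 3.49 (SD, n = 3 each). Its log2 fold change over both ages was 1.35 (standard error 0.16, limma adjusted p = 0.00853).

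Adipoq, second to Cfd in abundance, was at 57.8, 92.9 and 85.3 FPKM in aged CR mice, against 62.3, 17.2 and 49.6 FPKM in aged AL mice. In young mice it was at 74.9, 82.2 and 56.8 FPKM with CR, against 30.9, 31.7 and 36.6 FPKM with AL. The aged groups overlapped, since aged CR mouse 5 was below aged AL mouse 13, and the young groups did not. Means of 78.7 ± 18.5 FPKM in aged CR and 43.0 ± 23.2 FPKM in aged AL mice gave a ratio of 1.83, and 71.3 ± 13.1 FPKM in young CR and 33.1 ± 3.12 FPKM in young AL mice a ratio of 2.16 (SD, n = 3 each). At a log2 fold change of 1.04 (standard error 0.26) over both ages, Adipoq did not pass (limma, adjusted p = 0.112). It passed without aged AL mouse 14 (0.77, adjusted p = 0.0390), and without both mouse 14 and mouse 5 (0.87, adjusted p = 0.00479). Leaving out any other single mouse did not bring it past the threshold, and the limma adjusted p reached 0.272.

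Lep was the scarcest of the 6, with 0.195, 1.1 and 0.609 FPKM in aged CR mice, against 0.262, 0.283 and 0.463 FPKM in aged AL mice. Young CR mice had 0.569, 1.12 and 0.453 FPKM of Lep, against 0.157, 0.239 and 0.314 FPKM in young AL mice. The aged groups overlapped and the lowest aged value was that of CR mouse 5, whereas in young mice each CR value was above each AL value. Lep averaged 0.636 ± 0.455 FPKM in aged CR and 0.336 ± 0.111 FPKM in aged AL mice, and 0.715 ± 0.358 FPKM in young CR and 0.237 ± 0.0786 FPKM in young AL mice (SD, n = 3 each). When all 28537 genes with any signal were fitted, its log2 fold change with diet was 0.36 (standard error 0.14) and was not called (limma, adjusted p = 0.434). An exact two-sided permutation of diet within each age, chosen after the values were seen, gave p = 0.035, where the smallest possible is 0.005. At such levels the pseudocount of 1 compresses the change.

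**Figure D1:**
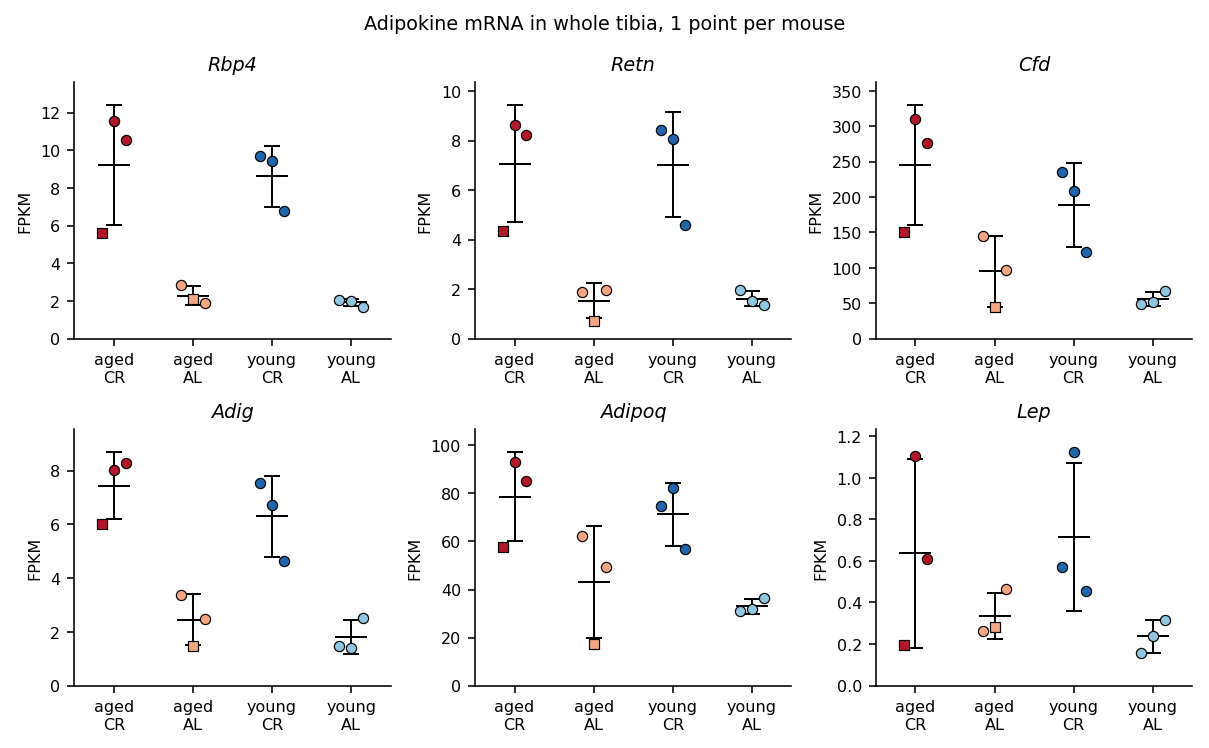
FPKM (vertical axis, linear from 0, own scale per panel) of the 6 adipokines in the 4 groups, with 1 point per mouse (n = 3 per group), a bar at the mean and whiskers of 1 SD. Squares are aged CR mouse 5 and aged AL mouse 14. In the panels of Rbp4, Retn, Cfd and Adig the CR points lie above the AL points of the same age, while in those of Adipoq and Lep the aged groups overlap, with aged CR mouse 5 at 57.8 FPKM of Adipoq below the highest aged AL mouse at 62.3.

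The diet effect was also estimated within each age. In aged mice the log2 fold changes were 1.67 for Retn, 1.6 for Rbp4, 1.45 for Cfd, 1.32 for Adig and 1.01 for Adipoq, with standard errors of 0.22 to 0.41. None was called in aged mice (limma, adjusted p = 0.198 to 0.576), where 0% of all genes were called higher. With p-values unadjusted and under 0.05, 5 of 5 members were higher in aged CR than in aged AL mice, against 4.5% of genes tested. An unequal-variance test on FPKM called 0 members in either age after adjustment over all genes. Leaving out aged CR mouse 5, Rbp4 (1.88, adjusted p = 0.00203) and Retn (1.94, adjusted p = 0.0457) were called in aged mice.

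In young mice the log2 fold changes were 1.70 for Rbp4, 1.70 for Cfd, 1.59 for Retn, 1.38 for Adig and 1.07 for Adipoq, with standard errors of 0.22 to 0.41. Only Rbp4 was called (limma, adjusted p = 0.0242), that is 1 of 5, against 0.0368% of genes called higher. Adig (adjusted p = 0.0702) and Retn (adjusted p = 0.0943) came nearest of the others, and Cfd had an adjusted p of 0.182 and Adipoq of 0.348. The call of Rbp4 was lost when any of young CR mice 1 and 2 and young AL mice 9, 10 and 11 was left out, at log2 fold changes of 1.62 to 1.74 and adjusted p-values of 0.078 to 0.166. Without aged AL mouse 14, which is in neither young group but enters the shared spread, Adig (adjusted p = 0.0294) and Retn (adjusted p = 0.0326) were called as well, and a fit of the young groups alone called 5 of 5. The share of all genes called in these fits is not given here, so the counts have no background beside them.

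**Figure D2:**
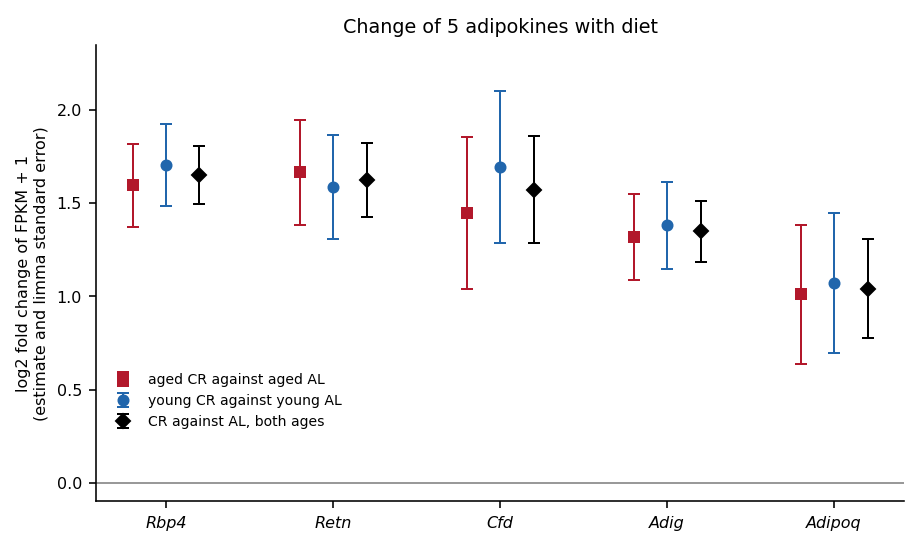
Log2 fold change of FPKM + 1 (vertical axis) of the 5 tested adipokines for aged CR against aged AL (squares), young CR against young AL (circles) and CR against AL over both ages (diamonds), with limma's standard error as whiskers and n = 3 mice per group. The aged and young estimates of each gene lie within 1 standard error of each other, and Adipoq has the smallest estimates, at 1.01 in aged and 1.07 in young mice.

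The difference between the ages was tested as an interaction, and it was not called for any member, nor for any gene, so that the background is 0%. The aged minus young difference of the diet effect was 0.08 for Retn, -0.06 for Adipoq, -0.06 for Adig, -0.11 for Rbp4 and -0.25 for Cfd on the log2 scale, with standard errors of 0.31 to 0.58 (limma, adjusted p = 0.999 for each). At an unadjusted p under 0.05 the interaction was positive for 322 genes and negative for 253 of the 13590, and no member was among them. With 3 mice per group these standard errors leave room for unequal effects in the 2 ages.

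Age over both diets called 0 of 5 members, against 0.449% of genes called higher with age. Cfd had the highest log2 fold change with age at 0.49 (standard error 0.29, limma adjusted p = 0.426), followed by Adig at 0.25, Adipoq at 0.16, Rbp4 at 0.10 and Retn at -0.04. In AL mice the mean of Cfd in aged mice was 1.70 times that in young mice, but aged AL mouse 14 had less Cfd than any young AL mouse. With a quality weight per mouse, which gave aged AL mouse 14 the lowest weight, Cfd was called with age (0.73, adjusted p = 0.0355).

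Relative to Adipoq, Cfd and Retn were higher in CR than in AL mice. Cfd made up 69.9% of the summed FPKM of the 6 genes in aged CR mice, 65.7% in aged AL mice, 66.1% in young CR mice and 59.0% in young AL mice, as means over 3 mice. Adipoq made up 23.1% in aged CR mice, 29.2% in aged AL mice, 25.8% in young CR mice and 35.1% in young AL mice. Retn, Rbp4, Adig and Lep shared the rest, and in no group did the mean share of any of them exceed 3.11%. Retn, Rbp4 and Adig overlapped in level within each of the 4 groups, so their order is not resolved by their ranges. Within each mouse Rbp4 exceeded Retn, except in aged AL mouse 15 (1.25% against 1.30% of the sum). Cfd and Adipoq were separate from each other and from these genes in each mouse.

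Each of the other tested members was set against Adipoq in the same mouse, on the log2 scale with the pseudocount of 1, and the diet labels were permuted within each age (exact two-sided test, 400 arrangements, Benjamini-Hochberg adjustment over the 4 ratios). Cfd was at 260%, 334% and 323% of Adipoq in aged CR mice, against 232%, 257% and 194% in aged AL mice, and at 314%, 254% and 214% in young CR mice, against 159%, 163% and 183% in young AL mice. Cfd thus exceeded Adipoq by more in each CR mouse than in any AL mouse of its age, with a mean difference of 0.53 (exact p = 0.005, the smallest possible, adjusted p = 0.02). In aged mice the gap was narrow, with CR mouse 5 at 260% and AL mouse 14 at 257%.

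Retn was at 7.52%, 9.30% and 9.63% of Adipoq in aged CR mice, against 3.02%, 4.24% and 4.00% in aged AL mice, and at 11.3%, 9.80% and 8.11% in young CR mice, against 6.37%, 4.84% and 3.70% in young AL mice. The percentages did not overlap within an age, but with the pseudocount the log2 ratio of aged AL mouse 14 (-3.40) exceeded that of aged CR mouse 5 (-3.46). The log2 ratio was higher with CR by 0.58 (exact permutation p = 0.015, adjusted p = 0.03). Leaving out young CR mouse 1 or aged CR mouse 5, 6 or 7 ended this call, at adjusted p-values of 0.05 to 0.08. Rbp4 was at 9.70%, 12.4% and 12.3% of Adipoq in aged CR mice, against 4.60%, 12.1% and 3.84% in aged AL mice, so that aged AL mouse 14 had the ratio of a CR mouse. In young mice it was at 12.9%, 11.4% and 11.9% with CR, against 6.71%, 6.34% and 4.64% with AL. Its difference was 0.61 (exact permutation p = 0.045, adjusted p = 0.06). That of Adig was 0.31 (exact permutation p = 0.115, adjusted p = 0.115). Both were called without aged AL mouse 14 (Rbp4 0.86, Adig 0.47, exact adjusted p = 0.01 each) and with a pseudocount of 0.1 (Rbp4 0.94, adjusted p = 0.02, and Adig 0.63, adjusted p = 0.0133, both exact).

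**Figure D3:**
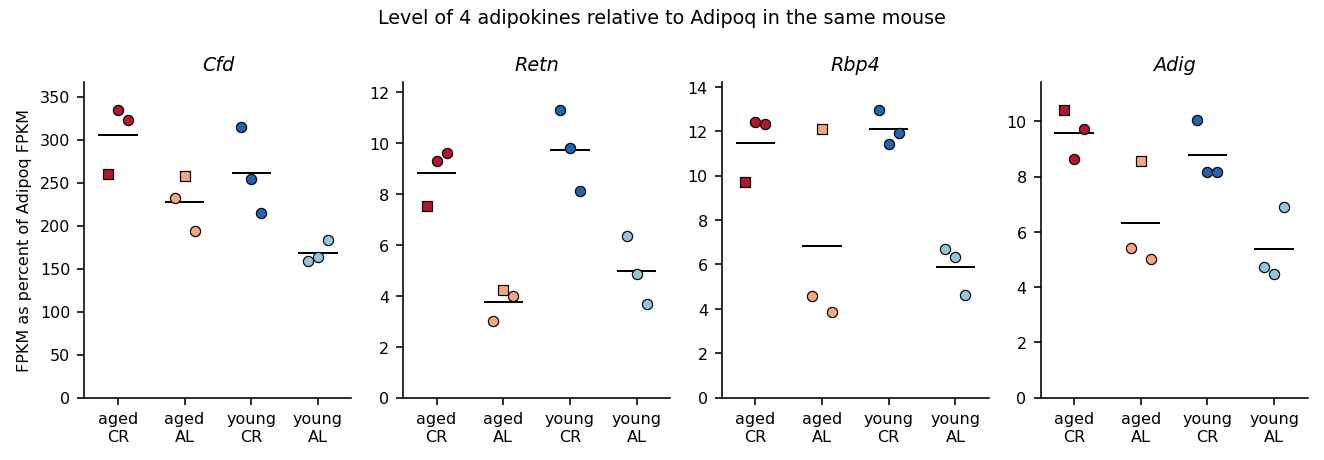
FPKM of Cfd, Retn, Rbp4 and Adig as a percentage of the FPKM of Adipoq in the same mouse (vertical axis, linear from 0, own scale per panel), with 1 point per mouse, n = 3 per group, and a line at the group mean. Squares are aged CR mouse 5 and aged AL mouse 14. The CR points of Cfd and Retn lie above the AL points of their age, while aged AL mouse 14 stands at 12.1% of Adipoq for Rbp4, among the CR mice.

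The genes that make up the other side of these signals were followed with lists. With diet over both ages, 26 of the 13590 genes tested were called higher and 9 lower. A count of 0 in these short lists is therefore near the share of all genes. Among adiponectin receptors and secretion factors, 0 of 6 tested genes were called in either direction with diet, at a median log2 fold change of 0.01. Gstk1, which helps adiponectin assemble into multimers, had the smallest p of these (0.26, limma adjusted p = 0.297), followed by Appl1, an adaptor of the adiponectin receptors (-0.10, adjusted p = 0.460), and Adipor1 (0.11, adjusted p = 0.672). Cdh13, T-cadherin, was under 1 FPKM and not tested.

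Of the resistin family and its candidate receptors, 0 of 5 tested genes were called, at a median of 0.17. Tlr4, an innate immune receptor proposed for resistin, was at 0.17 (limma, adjusted p = 0.366), Retnla at 0.77 (adjusted p = 0.453) and Dcn, decorin, at -0.20 (adjusted p = 0.518). Retnla ranged from 1.25 to 6.13 FPKM in aged CR and from 1.43 to 3.89 FPKM in aged AL mice, and from 1.45 to 6.36 FPKM in young CR and from 0 to 2.56 FPKM in young AL mice, so that the groups overlapped in both ages. Retnlb and Ror1 were under 1 FPKM.

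For retinoid handling, 0 of 5 tested genes were called, at a median of 0.06. Aldh1a1, which makes retinoic acid, was at 0.32 (limma, adjusted p = 0.262) and Dhrs3, which turns retinal into retinol, at 0.06 (adjusted p = 0.823). Stra6 and Stra6l, the membrane receptors of RBP4, averaged 0.00452 and 0.127 FPKM, and Rbp7, Crabp1, Crabp2 and Lrat were also under 1 FPKM. Ttr, the partner of RBP4 in blood, was not analysed here.

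Of the alternative complement pathway, in which adipsin acts, 0 of 9 tested genes were called, at a median of 0.01. Cfp, properdin, which stabilizes the convertase, had the smallest p (0.29, limma adjusted p = 0.127), with 118, 91.8 and 110 FPKM in aged CR mice, against 73.0, 67.0 and 84.6 FPKM in aged AL mice. In young mice Cfp was at 79.9, 85.0 and 83.1 FPKM with CR, against 74.0, 77.3 and 83.9 FPKM with AL, so that the groups overlapped there, at a log2 fold change of 0.08 against 0.50 in aged mice. The difference between the ages was not called (interaction 0.42, limma adjusted p = 0.999). The inhibitor Cr1l followed (-0.09, adjusted p = 0.501). C3, the substrate of the pathway, was at 0.01 and Cfb, the substrate of adipsin, at -0.08. Cfi, Masp1 and Hc were under 1 FPKM.

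Of the leptin receptor and its signal, 0 of 5 tested genes were called, at a median of -0.07. Socs3, the feedback inhibitor of leptin signalling, was at -0.38 (limma, adjusted p = 0.409), Jak2 at -0.10 (adjusted p = 0.534) and Stat3 at -0.05 (adjusted p = 0.755). Lepr itself averaged 11.3 ± 1.5 FPKM in aged CR and 11.7 ± 3.14 FPKM in aged AL mice, and 11 ± 0.773 FPKM in young CR and 11.9 ± 1.31 FPKM in young AL mice (SD, n = 3 each).

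Of 16 tested genes for other adipokines, 0 were called, at a median of 0.09. Dpp4, a membrane protease that is also shed, was at -0.50 (limma, adjusted p = 0.103) and Rarres2, chemerin, at 0.50 (adjusted p = 0.234). Rarres2 was at 28.7, 36.3 and 34.0 FPKM in aged CR mice, against 31.5, 17.2 and 26.6 FPKM in aged AL mice, and at 37.1, 36.1 and 20.3 FPKM in young CR mice, against 18.2, 19.3 and 22.3 FPKM in young AL mice. The groups overlapped in both ages. The adipokine mRNAs Apln, Itln1, Sfrp5, Serpina12, Il6, C1qtnf2, C1qtnf3, C1qtnf7 and C1qtnf9 were under 1 FPKM, and C1qtnf12 and Fgf21 were not analysed here.

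Other genes of the adipocyte, for lipid uptake, storage and release and for its transcription factors, were mostly higher with CR, with a lower median than the adipokines. Of 14 tested, 2 were called higher with diet, against 0.191% of all genes, and 0 were called lower. An unadjusted p under 0.05 was reached by 13, each higher with CR, against 7.42% of all genes, and the median was 0.51. The estimates of Scd1 (1.42) and Cidec (1.40) lay above that of Adig (1.35). Those of Plin1 (1.07) and Gpd1 (1.05) lay above that of Adipoq (1.04). Scd1, Plin1 and Gpd1 were not called (limma, adjusted p = 0.0553 to 0.0632). The other tested genes of the list lay below all 5 adipokines, and the difference of the medians was not tested. Lpl, lipoprotein lipase, which adipocytes release to the capillary wall, was called at 0.76 (standard error 0.08, limma adjusted p = 0.00316), and averaged 53.7 ± 5.27 FPKM in aged CR and 34.4 ± 2.97 FPKM in aged AL mice, and 56.8 ± 2.84 FPKM in young CR and 30.2 ± 3.85 FPKM in young AL mice (SD, n = 3 each). Cidec, a lipid droplet protein, was called at 1.40 (standard error 0.21, adjusted p = 0.0320), with 17.5 ± 5.99 FPKM in aged CR and 7.20 ± 2.73 FPKM in aged AL mice, and 13.2 ± 3.01 FPKM in young CR and 3.57 ± 0.701 FPKM in young AL mice (SD, n = 3 each). Slc2a4, the insulin-regulated glucose transporter, which muscle also uses, was at -0.0019 (adjusted p = 0.996). With age, Plin4, a lipid droplet coat protein, was the 1 gene of this list that was called (0.58, adjusted p = 0.0429). Adrb3, Acvr1c and Aqp7 were under 1 FPKM.

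**Figure D4:**
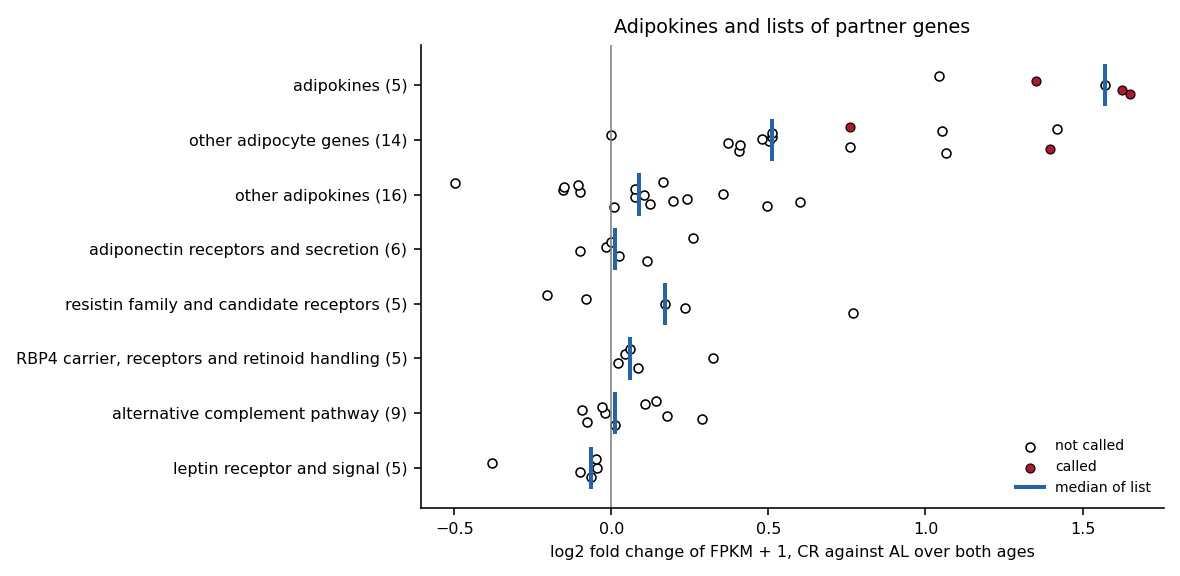
Log2 fold change of FPKM + 1 for CR against AL over both ages (horizontal axis) of each tested gene in 8 lists (rows, with the number of tested genes in brackets), 1 point per gene from 12 mice. Filled points were called at an adjusted p under 0.05 and the vertical bars are list medians. The adipokines have a median of 1.57 and the other adipocyte genes one of 0.51, and the medians of the other 6 lists lie between -0.07 and 0.17.

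Markers of other cells were read in the same mice. Summed adipocyte markers (Plin1, Cidec, Fabp4, Pparg, Lipe and Plin4) ranged from 369 to 567 FPKM in aged CR and from 231 to 362 FPKM in aged AL mice. The sums ranged from 395 to 493 FPKM in young CR and from 223 to 255 FPKM in young AL mice. With 6 of 6 present, they did not overlap between diets in either age. Fabp4 made up most of the sum, at a mean of 330 FPKM over all mice, against 3.70 to 12.9 FPKM for each other marker. In young mice each of the 6 was higher with CR without overlap. In aged mice only Cidec and Fabp4 were, while Plin1, Pparg, Lipe and Plin4 overlapped. The brown adipocyte markers Ucp1, Cidea, Ppara and Elovl3 were all under 1 FPKM, at most 0.821 FPKM together in any mouse. B cell markers summed to 95.7 to 138 FPKM in aged CR and 71.5 to 230 FPKM in aged AL mice, and to 116 to 135 FPKM in young CR and 183 to 225 FPKM in young AL mice.

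Osteoblast markers summed to 468 to 553 FPKM in aged CR and 276 to 1024 FPKM in aged AL mice, and to 513 to 746 FPKM in young CR and 881 to 1253 FPKM in young AL mice. Macrophage markers summed to 421 to 485 FPKM in aged CR and 304 to 345 FPKM in aged AL mice, and to 314 to 380 FPKM in young CR and 255 to 324 FPKM in young AL mice. By gene, each of the 4 B cell markers was lower in young CR than in young AL mice without overlap. Of the osteoblast markers only Bglap, osteocalcin, was so in young mice (ratio of means 0.523), and Alpl, Ibsp and Col1a1 overlapped there, while in aged mice Alpl was higher with CR without overlap. Of the macrophage markers only Cd68 was higher with CR without overlap, in both ages. With diet over both ages 0 of these 12 genes was called, against 26 higher and 9 lower of 13590. Their part in the adipokine differences was not tested. Skeletal muscle markers, which overlapped between diets in both ages, ranged from 111 to 800 FPKM over the 12 mice, and summed tendon markers overlapped between diets as well. The neutrophil sum says little, because S100a8 (mean 13743 FPKM) made up much of it. S100a8 had the same FPKM in all young mice after quantile normalization. The other neutrophil markers, Ngp, Camp, Ltf and Retnlg, each overlapped between diets in both ages. The erythroid sum cannot be read, because Hbb-bs had the same FPKM in all 12 mice and Hba-a1 in 11 of them after quantile normalization. The erythroid marker Alas2 overlapped between diets in both ages.

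Over the 12 mice the 6 adipokines varied together, as a description of mice that share the diet groups. Pearson's r of log2(FPKM + 1) was highest for Cfd and Adig, at 0.97, and for Retn and Rbp4, also at 0.97, and lowest for Adipoq and Lep, at 0.70. After the group means were removed, Cfd and Adig (0.94) and Cfd and Adipoq (0.94) were the closest pairs and Retn and Rbp4 were at 0.80, while Rbp4 and Adipoq were at 0.51.

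The genes outside the 6 whose levels were most like each member over the 12 mice were found in the same way. For Adipoq these were Gsta4 (r = 0.98), S100a1 (0.96) and Thrsp (0.95), a regulator of lipid synthesis. For Cfd they were Slc7a10 (0.97), Fabp4 (0.97), which encodes a fatty acid carrier of adipocytes, and Cidec (0.97). For Retn they were Cdo1 (0.97), an enzyme that oxidizes cysteine, Chpt1 (0.95) and Gstz1 (0.94), and for Rbp4 Cdo1 (0.94), Pdzk1ip1 (0.94) and Gstz1 (0.94). For Adig they were Obsl1 (0.98), Thrsp (0.96) and Pdzk1ip1 (0.96).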

How the data were processed

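Total RNA of ground tibiae was prepared as stranded mRNA libraries. The authors inspected read quality (FastQC 0.11.8, MultiQC 1.6), filtered adapters with Trim Galore 0.5.0, mapped to mm10 with STAR 2.6.1, and estimated FPKM with StringTie 2.1.3b. The deposited FPKM had been quantile normalized by the authors (R 4.1.1) and are not on a log scale. The labels list 48 libraries, 4 technical repeats for each of 12 mice, and the table holds a single column for each mouse, which counted once. The way the repeats were merged is not stated in these sources.

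For this work, log2(FPKM + 1) of 13590 genes averaging 1 FPKM or more was fitted with 4 group means and a mean-dependent prior variance (limma 3.58.1, R 4.3.3). P-values were adjusted by Benjamini-Hochberg within each of 5 comparisons, over all genes tested. An exact two-sided test of 3 against 3 mice within 1 age cannot go below p = 0.1 and was not run. The exact permutations within both ages have a smallest p of 0.005. The scripts were tested on simulated data. Identifiers were matched to GENCODE M21 (99.2% found), and promoter sequences are from RefSeq (GRCm38.p6).

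The 6 genes, the partner lists and the marker lists were chosen with earlier results of these data known. All 6 members were described in full. Of each list, called genes were named, or otherwise up to 3 genes with the smallest p for diet, with members under 1 FPKM. For each tested member the 3 genes with the highest r were named, and other genes were named after their values were seen. Some genes that the rule would name are not reported here. Alternatives were a pseudocount of 0.1, no filter, size-factor scaling, a quality weight per mouse, a fit of 2 groups, an unequal-variance test on FPKM, and leaving out mice.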

Additional observations from a re-analysis of the deposited data

How the results depend on the processing

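The direction of the diet effect held for the 5 tested adipokines under every alternative run, over both ages and within each age, while the number called did not. Over both ages 3 were called, with 1 called without the filter on low values, 5 with a quality weight per mouse, 5 without the aged mice 14 (AL) and 5 (CR), and 3 to 5 with each mouse left out in turn. In aged mice 0 were called, with 3 under the quality weight, 2 without mice 14 and 5, and 0 to 2 with each mouse left out. In young mice 1 was called, with 0 without the filter, 0 by the unequal-variance test, 5 under the quality weight, 5 in a fit of the young groups alone, 5 without mice 14 and 5, and 0 to 3 with each mouse left out. With age 0 were called, and 1 (Cfd) under the quality weight. The cause of these shifts was not tested. The shares of all genes called under these alternatives are not given here, so their counts of members have no background beside them. A pseudocount of 0.1 raised the difference of the log2 ratio to Adipoq to 0.94 for Rbp4 and 0.63 for Adig, which were then called, as its own construction weighs low values more. With each mouse left out the ratios ranged from 0.46 to 0.73 for Retn, 0.47 to 0.86 for Rbp4, 0.46 to 0.60 for Cfd and 0.23 to 0.47 for Adig.

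Values near 0 changed sign. For Retn with age they were 0.044 under the quality weight, 0.22 without mice 14 and 5, and -0.165 to 0.092 with each mouse left out, and for Adipoq with age -0.018 to 0.432. The interaction of Retn was -0.17 under the quality weight and that of Rbp4 0.14 without mice 14 and 5. With each mouse left out it ranged from -0.17 to 0.35 for Retn, -0.28 to 0.18 for Rbp4, -0.61 to 0.29 for Adipoq, -0.71 to 0.13 for Cfd and -0.28 to 0.13 for Adig. No paired analysis was possible because the mice carry different numbers in each group and the repeat numbers shared in the labels are technical. FPKM hold no read counts, so counting error, which weighs most on Lep, is unknown. Size factors were within 0.987 to 1.02, after quantile normalization had already given every mouse the same distribution. Scaling by them could therefore change little and is not a check of the normalization.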
